A study of Ovis aries with 13 samples.

Results

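Immediate early genes of the JUN, FOS, EGR, MYC and ZFP36 type were examined in the left ventricle of newborn lambs and sheep fetuses. Members were the array probes whose gene name, or gene by RefSeq identifier, was JUN, JUNB, JUND, FOS, FOSB, FOSL1, FOSL2, ATF3, MYC or ZFP36, or EGR followed by a digit. The rule found 6 of the 972 genes with a name on the array, by 13 of its 15008 probes: FOS with 4 probes, JUNB, MYC, ZFP36 and EGR1 with 2 each, and JUND with 1. The other 5 genes named in the rule, JUN, FOSB, FOSL1, FOSL2 and ATF3, and the other EGR genes matched no probe. Probes of a gene are called a, b, c and d here, from the brightest to the dimmest.

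The newborn group held 7 lambs labelled postnatal day 1, whose tissue the protocol dates to the day of birth (4 females and 3 males), and the fetal group 6 fetuses at gestational day 142 (2 females and 4 males). The labels name no treatment or genotype for either group, and each animal gave 1 piece of left ventricle, frozen at collection, and 1 single-colour Agilent array. A seventh fetus and the other heart regions mentioned by the submitters were not analysed here. Arrays lay on 2 slides, slide 1 with 3 newborn and 4 fetal arrays and slide 2 with 4 newborn and 2 fetal arrays.

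Immediate early genes are transcribed within minutes of a stimulus from factors already present in the cell, and their mRNAs are short-lived. JUN and FOS family proteins pair through leucine zippers to form AP-1, EGR1 and MYC are transcription factors, and ZFP36 (tristetraprolin) binds AU-rich elements in the 3′ ends of mRNAs and speeds their decay. In heart tissue they are known to respond to stretch, hormones, hypoxia and handling of the tissue.

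The probes that carry the results are shown 5′ to 3′, as read from the scanner files. The ZFP36 pair is shown because its 2 probes gave opposite differences, and capitals mark the stop codon that ends probe a and the 2 in-frame cysteine codons of probe b. These lie 8 codons apart, the spacing that opens a CCCH zinc finger of this family.
ZFP36 a: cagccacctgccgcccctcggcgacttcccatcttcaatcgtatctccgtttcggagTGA
ZFP36 b: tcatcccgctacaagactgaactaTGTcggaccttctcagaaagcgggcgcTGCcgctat

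The JUNB pair is shown because its probes read almost the same bases, 59 of 60, offset by 1 base, so they are not independent. Only the stretch up to the stop codon, in capitals, is given.
JUNB a start: caagggacacgccttcTGA
JUNB b start: aagggacacgccttcTGA

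The EGR1 probes share 22 bases, in capitals, yet probe a was well above background on all 13 arrays and probe b on only 3.
EGR1 a: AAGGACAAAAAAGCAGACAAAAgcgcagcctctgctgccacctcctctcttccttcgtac
EGR1 b: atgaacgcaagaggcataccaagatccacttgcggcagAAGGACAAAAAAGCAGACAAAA

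The MYC probes share 20 bases, and that stretch and probe a of FOS hold the pentamer ATTTA, in capitals, the core letters of AU-rich elements. FOS probes c and d share 59 bases.
MYC a and b, shared: agactgaaagATTTAgccat
FOS a, 30 bases: acttgaatgaaaaATTTAagcattgtttgc

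ATTTA was searched in the probe strand and its complement. It stood in 3 of the 13 member probes on the probe strand and in 0 on the other strand, against 8.04% and 7.88% of all 15008 probes. No member probe shared a stretch of 20 or more bases with a probe outside the group.

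Levels are log2 processed signals minus the 75th percentile of the array, so a level of 0 equals that percentile, and a level of one probe cannot be set against that of another. Between 9411 and 10720 probes were well above background on an array. The 8 probes JUNB a and b, JUND, FOS a, EGR1 a, MYC a and b and ZFP36 a were well above background on all 13 arrays, and 10257 probes in all, well above background on at least 6 arrays, were tested. FOS b, c and d, EGR1 b and ZFP36 b did not pass that filter. No member spot was saturated or marked as an outlier. Precision is limited by how many arrays there are. In a principal component analysis newborn 6 lay at -9.0 on the leading axis (36.8% of the variance), between the other newborns (10.08 to 35.1) and the fetuses (-29.1 to -20.4), so values without it are given where they change a call. By the labels 9 animals carry only 4 distinct animal numbers, for an unstated reason, and p-values measure the spread between these arrays. Some numbers are shared by a male and a female, so a number does not name a single animal. The main tests treat the arrays as independent.

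None of the 8 tested probes passed the newborn over fetal test, in which limma's moderated test was adjusted over all 10257 probes at a threshold of 0.05 (0 of 8, against 23.1% of all tested probes, of which 12% were higher and 11.1% lower in newborns). At an unadjusted p under 0.05 stood 4 of 8, against 37.8% of all. In 0 of 8 did newborn and fetal arrays separate without overlap, against 6.88% of the 10139 probes for which no array lacked a value. The median change of the 8 probes was 0.19 on the log2 scale, against 0.03 over all tested probes, and the median size of change was 0.28 against 0.24. The 4 lowest p-values were those of ZFP36 a, JUNB a, FOS a and JUNB b, all with a higher newborn mean, while both MYC probes had a lower newborn mean.

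**Figure D1:**
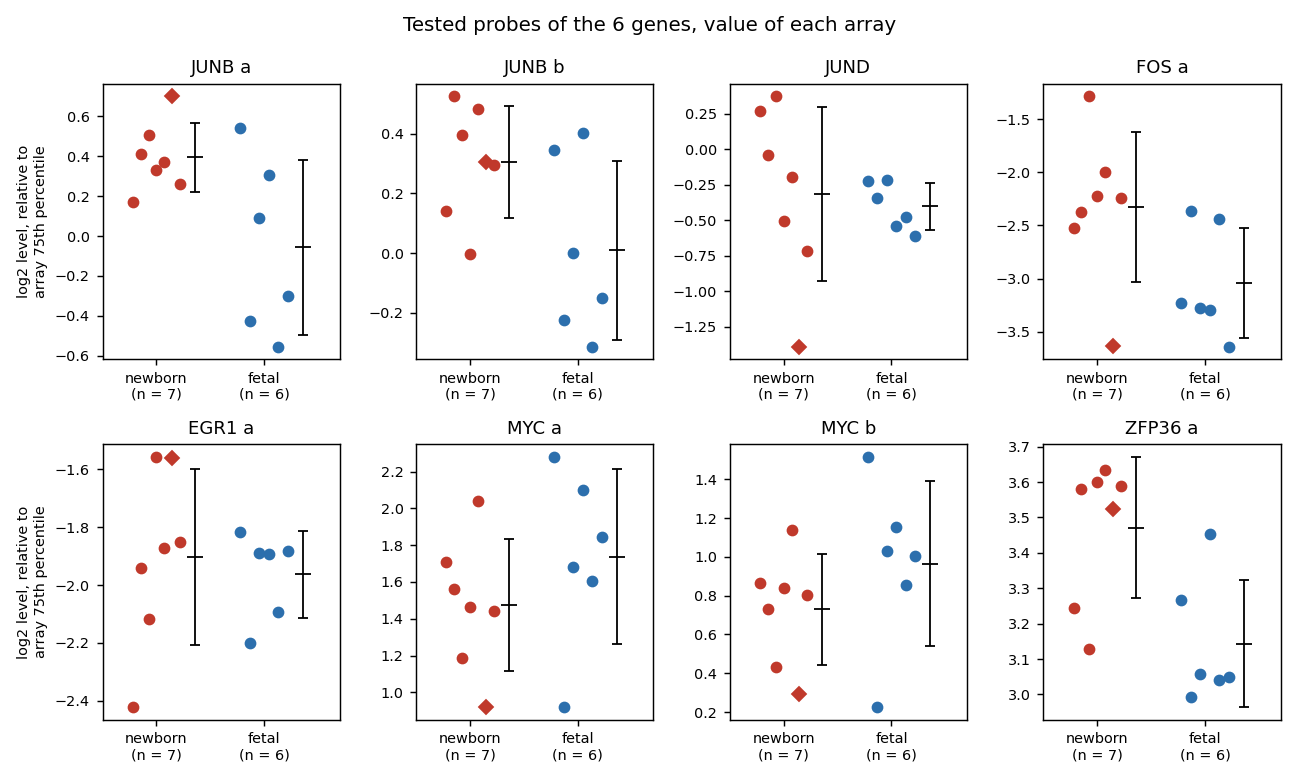
Log2 level (vertical axis, relative to the 75th percentile of the array) of the 8 tested probes on each newborn and fetal array, with the mean and SD of the group as a black bar. Newborn 6 is drawn as a diamond. The groups overlap for every probe, and 5 of 7 newborn arrays lie above all fetal arrays for ZFP36 a.

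JUNB is an AP-1 subunit that can replace or oppose JUN. Probe a had newborn levels of 0.17 at the lowest, 0.37 at the median and 0.70 at the highest, and fetal levels of -0.55, -0.11 and 0.54. All 7 newborn arrays lay above the fetal mean, but only newborn 6 lay above all fetuses, since fetuses 1 and 4 were high. Newborn hearts averaged 0.39 ± 0.17 (SD, n = 7) and fetal hearts -0.06 ± 0.44 (SD, n = 6). The log2 change was 0.45 (SE 0.169, 95% interval 0.09 to 0.81), with an adjusted p of 0.0668. An exact two-sided permutation test over the 1716 regroupings of the arrays, for which the smallest possible p is 0.00117, gave an unadjusted p of 0.0332. Left out in turn, fetus 1 or fetus 4 took the change past the threshold (0.57, adjusted p = 0.0197, without fetus 1, and 0.52, adjusted p = 0.0476, without fetus 4). With sex in the model the change was 0.53 (adjusted p = 0.0294). It was 0.23 within slide 1 (adjusted p = 0.578), 0.84 within slide 2 (adjusted p = 0.124), and a fit with a slide term gave 0.50 (adjusted p = 0.0518).

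JUNB b, offset by 1 base, had newborn levels from 0.00 to 0.53 with a median of 0.30, and fetal levels from -0.31 to 0.40 with a median of -0.08. Its change was 0.30 (SE 0.136, interval 0.01 to 0.59, adjusted p = 0.126), with 6 of 7 newborns above the fetal mean and 2 above all fetuses. Over the 13 arrays the JUNB probes correlated at a Pearson r of 0.866, and the SD of their difference, 0.200, compares with SDs of 0.386 and 0.281 for the probes themselves. The lower spread among newborns than among fetuses in probe a (0.17 against 0.44) was smaller in probe b (0.19 against 0.30).

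JUND is the JUN family member found in resting cells and is often expressed more steadily than JUN or JUNB. Its newborn levels ran from -1.39 to 0.38 with a median of -0.20, and its fetal levels from -0.61 to -0.21 with a median of -0.41. Newborns lay on both sides of the fetuses, with 4 above all of them and 2, among them newborn 6 at -1.39, below all of them. The means were -0.32 ± 0.61 in newborns (SD, n = 7) and -0.40 ± 0.17 in fetuses (SD, n = 6), and the change of 0.08 (SE 0.235, interval -0.42 to 0.59, adjusted p = 0.818) did not pass. The change was 0.53 (adjusted p = 0.0924) within slide 1 and -0.16 (adjusted p = 0.803) within slide 2, and 0.26 (adjusted p = 0.270) without newborn 6.

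FOS is the AP-1 partner of the JUN proteins. Probe a had newborn levels of -3.64 at the lowest, -2.24 at the median and -1.28 at the highest, and fetal levels of -3.64, -3.26 and -2.36. Newborn 3 was the highest array and newborn 6 lay with the lowest fetus, while 4 of 7 newborns exceeded all fetuses. The change was 0.72, or 1.64-fold (SE 0.309 on the log2 scale, interval 0.06 to 1.38), with an adjusted p of 0.107 and an unadjusted exact permutation p of 0.0682. Without newborn 6 it was 0.93 with an adjusted p of 0.0122. It was 0.98 within slide 1 (adjusted p = 0.136) and 0.52 within slide 2 (adjusted p = 0.604), and with normexp correction it was 0.21 on the background of each spot (adjusted p = 1.00) and 0.39 on the median background of the array (adjusted p = 0.0480). Its spread within groups, 0.63, was larger than that of 95.1% of the tested probes, whose median was 0.26.

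The other FOS probes gave no level that could be compared. FOS b and FOS d were well above background on 0 of 13 arrays, and FOS c on 1 fetal array, fetus 5. Their processed signals lay between 2.12 and 18.9, while that of FOS a lay between 20.2 and 143.6. The FOS result thus rests on 1 probe.

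EGR1 is a zinc finger factor induced along with FOS in many cells. EGR1 a had newborn levels from -2.42 to -1.56 with a median of -1.87, and fetal levels from -2.20 to -1.82 with a median of -1.89. The groups lay over each other, with 2 newborns above and 1 newborn below all fetuses. The change was 0.06 (SE 0.137, interval -0.23 to 0.35, adjusted p = 0.776), and the upper end of the interval was a 1.28-fold higher newborn level. Within slide 1 the change was -0.21 and within slide 2 it was 0.28 (adjusted p = 0.488 and 0.411). EGR1 b was well above background on 1 newborn and 2 fetal arrays.

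MYC drives ribosome production and growth and is a member of the early response in many cells. MYC a had newborn levels of 0.92, 1.46 and 2.04 (lowest, median, highest) and fetal levels of 0.92, 1.76 and 2.28. Its change was -0.26 (SE 0.211, interval -0.71 to 0.19, adjusted p = 0.380), and that of MYC b was -0.24 (SE 0.184, interval -0.63 to 0.16, adjusted p = 0.366). In both probes 6 of 7 newborns lay below the fetal mean, but none below the lowest fetus, fetus 2. The MYC probes followed each other closely (r = 0.974), with an SD of their difference of 0.107 against SDs of 0.421 and 0.362.

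**Figure D2:**
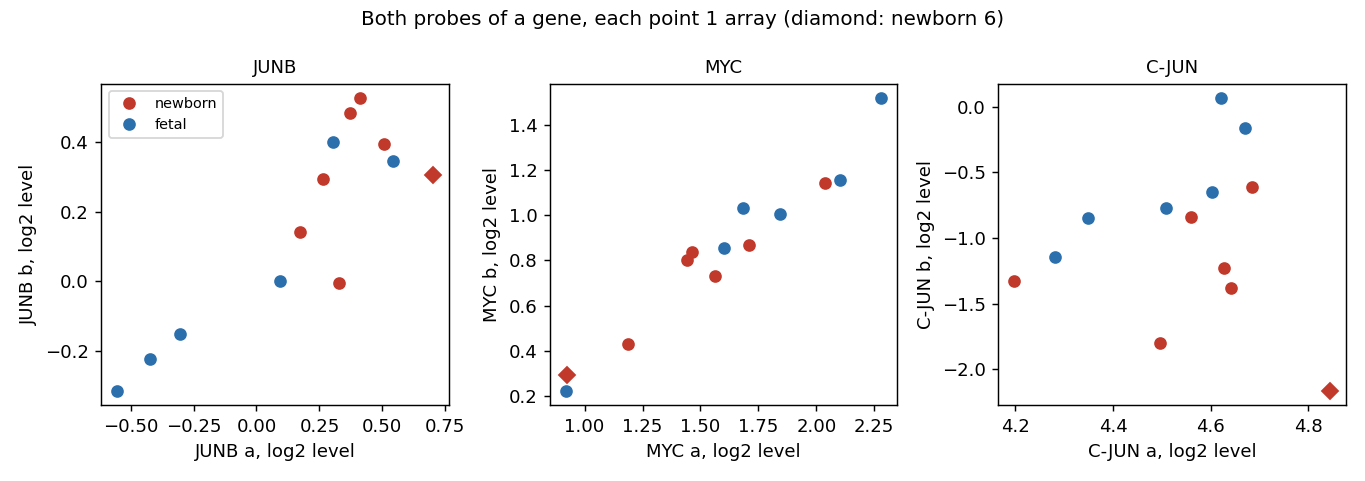
Level of the dimmer probe against that of the brighter probe on each array, for JUNB, MYC and the probes named C-JUN, both axes in log2 units. The JUNB and MYC pairs rise together (r = 0.866 and 0.974), and the C-JUN pair does not (r = 0.011).

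ZFP36 had, through probe a, the lowest p among the probes of the group that passed the filter. Probe a, which ends at the stop codon shown above, had newborn levels of 3.13 at the lowest, 3.58 at the median and 3.63 at the highest, and fetal levels of 2.99, 3.05 and 3.45. Newborns 1 and 3 were low and fetus 4 was high, and the other 5 newborns exceeded all fetuses. The means were 3.47 ± 0.20 in newborns (SD, n = 7) and 3.14 ± 0.18 in fetuses (SD, n = 6). The log2 change of 0.33, or 1.26-fold (SE 0.114, interval 0.08 to 0.57), had an adjusted p of 0.0502 and an unadjusted exact permutation p of 0.0169. The change passed in 7 of 28 alternatives, among them those without fetus 4 (0.39, adjusted p = 0.0275), newborn 1 (0.37, adjusted p = 0.0365) or newborn 3 (0.39, adjusted p = 0.0209), and the authors' deposited values (0.28, adjusted p = 0.0468). The change was 0.13 within slide 1 (adjusted p = 0.706) and 0.54 within slide 2 (adjusted p = 0.147).

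ZFP36 b, from the zinc finger part of the coding sequence, differed in the other direction. It was well above background on 0 of 7 newborn arrays and on 5 of 6 fetal arrays. Its newborn levels were -6.52 at the lowest, -5.44 at the median and -4.12 at the highest, and its fetal levels -4.33, -3.89 and -3.51. All newborn arrays but newborn 6 lay below all fetal arrays. Newborn levels were 1.45-fold lower than fetal levels when each newborn array was set to the higher of its own signal and the lowest signal well above background. That floor is only the dimmest probe counted on the array, so the value is not a strict lower limit. The measured means were -5.33 in newborns and -3.93 in fetuses. The probe did not pass the filter on dim probes, so it was left out of the main test. A limma fit of all 15008 probes without the filter gave a change of -1.40 (SE 0.337, adjusted p = 0.0170). The unadjusted exact permutation p was 0.00524. FOS b, c and d and EGR1 b did not pass in that fit (adjusted p from 0.271 to 0.924). Since ZFP36 b was well above background on 0 of 7 newborn arrays, the size of its change is uncertain. The processed signals of ZFP36 b lay between 2.80 and 28.7, and those of ZFP36 a between 2431 and 3611, so the probes were read at very different signal over background; its part in the difference between them was not tested.

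**Figure D3:**
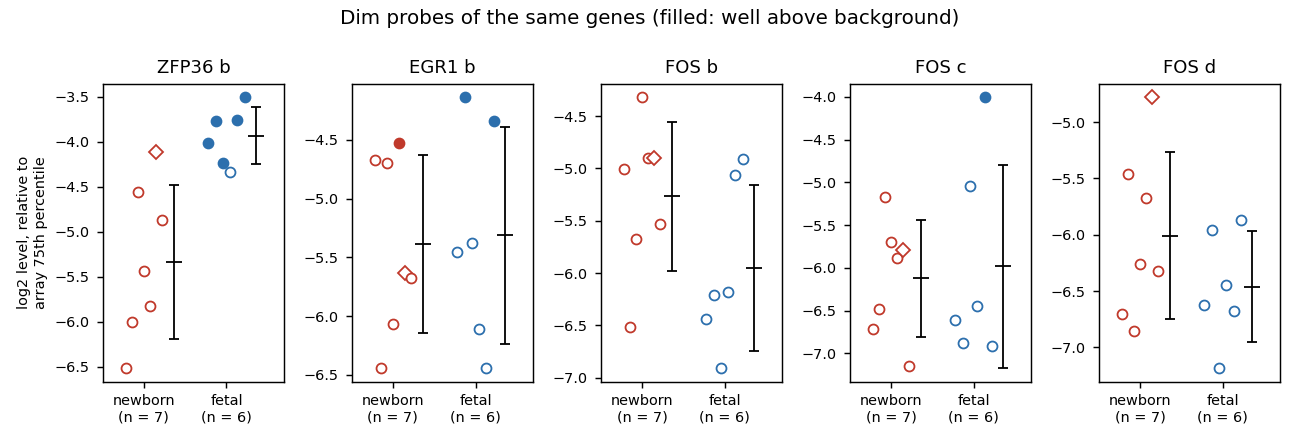
Log2 level (vertical axis) of the 5 dim probes on each newborn and fetal array, filled where the spot was well above background, with group mean and SD as a black bar and newborn 6 as a diamond. Of ZFP36 b, 5 of 6 fetal arrays are filled and 0 of 7 newborn arrays.

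Probes that the files name C-JUN fell outside the rule, since that name is not JUN and they carry no RefSeq identifier. They were added after their values were seen. They are shown because they disagree with each other; capitals mark a run of 5 CAG units in probe a, present in 1 of 15008 probes.
C-JUN a: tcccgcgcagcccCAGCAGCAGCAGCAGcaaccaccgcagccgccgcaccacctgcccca
C-JUN b: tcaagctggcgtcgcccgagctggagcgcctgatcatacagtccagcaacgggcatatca

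C-JUN b fell in newborns. Its newborn levels were -2.16, -1.33 and -0.61 (lowest, median, highest), against fetal levels of -1.15, -0.71 and 0.06. Newborn 6 was the lowest, and 5 of 7 newborns lay below all fetuses. The change was -0.75, or 0.595-fold (SE 0.248, adjusted p = 0.0423), and did not pass in 19 of 28 alternatives, among them that without newborn 6 (-0.61, adjusted p = 0.0558). C-JUN a, whose newborn levels ran from 4.20 to 4.84 and fetal levels from 4.28 to 4.67, had a change of 0.07 (SE 0.110, adjusted p = 0.659), which turned to -0.04 with quantile normalization and to -0.07 in the authors' deposited values.

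**Figure D4:**
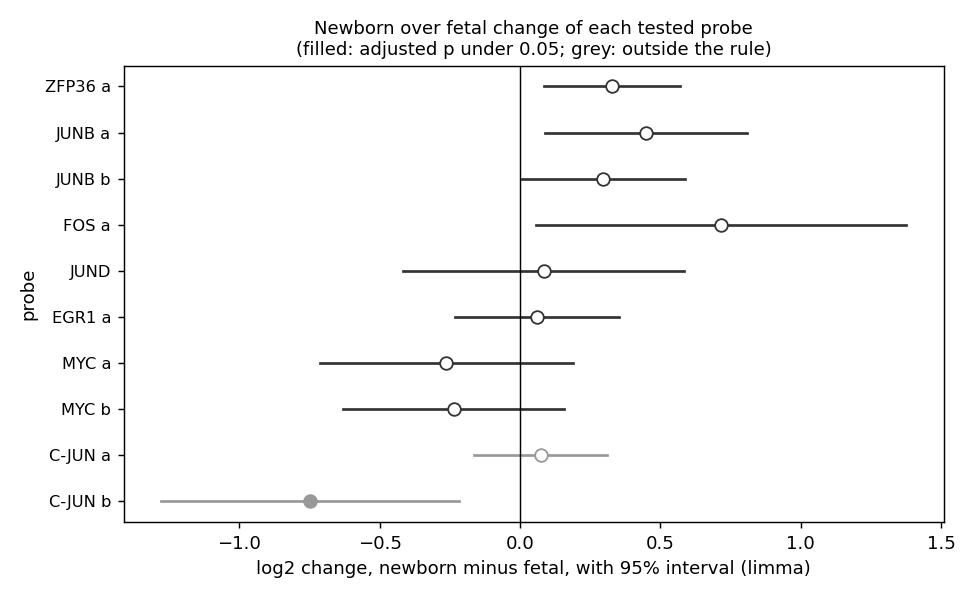
Log2 change, newborn minus fetal, of each tested probe with its 95% interval from limma, filled where the adjusted p was under 0.05 and grey for the probes outside the rule. The 8 probes of the rule are open, with ZFP36 a at 0.33, JUNB a at 0.45 and FOS a at 0.72, and C-JUN b is filled at -0.75.

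Sex was compared with age in the model, and 0 of 8 probes passed, against 0.00975% of all tested probes (1 probe); at an unadjusted p under 0.05 stood 1 of 8, against 3.23%. That probe, JUNB a, was 0.35 higher in males than in females (SE 0.154, adjusted p = 0.999). The male minus female differences of the other members lay between -0.13 (FOS a) and 0.23 (JUNB b). The product of age and sex, which tests whether the newborn over fetal change differed between sexes, passed for 0 of 8 probes and for 0% of all, and had an unadjusted p under 0.05 for 2 of 8, against 4.94% of all. Both were MYC probes.

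MYC a was at 0.92 to 1.56 in the 3 newborn males and at 1.60 to 2.28 in the 4 fetal males. The share of all tested probes that separate between so few males was not computed, and MYC was picked out for its pattern by sex. In females it was at 1.44 to 2.04 in the 4 newborns and at 0.92 and 1.84 in the 2 fetuses. The newborn minus fetal difference was -0.69 in males and 0.28 in females for MYC a, and -0.65 and 0.30 for MYC b. The product term was -0.98 for MYC a (SE 0.385, adjusted p = 0.975) and -0.95 for MYC b (SE 0.313, adjusted p = 0.975), and the female side rests on 2 fetuses that were far apart.

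**Figure D5:**
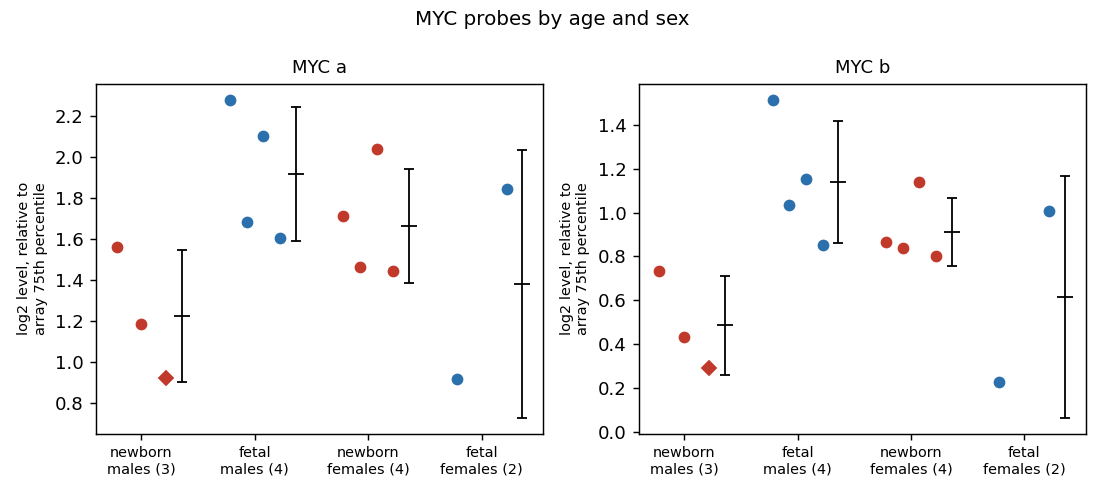
Log2 level (vertical axis) of MYC a and MYC b on each array by age and sex, with group mean and SD as a black bar and newborn 6 as a diamond. Newborn males lie below all fetal males in both panels, a separation whose share over all probes was not computed, and 1 of the 2 fetal females is the lowest array of all.

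The members did not vary alike. Within groups the SD of the tested probes ranged from 0.19 for ZFP36 a, with 24.6% of all tested probes below it, to 0.63 for FOS a, and JUND at 0.47 exceeded 88.1%. Taking the brightest probe of each gene over 13 arrays, JUNB and ZFP36 correlated at an r of 0.677, FOS and JUND at 0.594, and EGR1 and JUND at -0.692, while FOS and JUNB stood at 0.040. With group means subtracted, JUNB and ZFP36 stood at 0.454, FOS and JUND at 0.642, and EGR1 and JUND at -0.714. These points share arrays, slides and scaling, so the values are descriptions. Pairs of arrays with the same animal number differed less in FOS a (0.38 on average over 6 pairs, against 0.78 over 30 other pairs of a group). They also differed less in ZFP36 a (0.11 against 0.23) and in every other tested member probe except JUNB b (0.34 against 0.27). In the limma fit with animal number as a random block, the adjusted p was 0.0966 for ZFP36 a, 0.102 for JUNB a and 0.164 for FOS a.

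Among 605 other named genes with a value on all arrays, those whose levels followed JUNB most closely were INSL3 (r = 0.911), AANAT (0.891), RHAMM (0.879), NOG (0.873) and TLR7 (0.865). For ZFP36 they were ASF1A (0.879), PRLH (0.871), MYOD1 (0.868), INSL3 (0.822) and RHAMM (0.822), and LCAT ran against it (-0.877). FOS was followed by CXCL8 (0.863), DNMT1 (0.860) and CSNK1D (0.851), of which CXCL8 was well above background on only 6 of 13 arrays, and NR3C1, the glucocorticoid receptor, ran most against it (-0.866). JUND was followed by EIF4GI (0.816) and IGFBP6 (0.814) and opposed by PRND (-0.907). MYC was followed by EDNRA (0.789) and FZD3 (0.735), and EGR1 by SMCT1 (0.848) and VHNF1 (0.841). INSL3 and RHAMM thus stand among the 5 nearest genes of both JUNB and ZFP36 over the 13 arrays. With group means subtracted, neither was among the 5 nearest of ZFP36. INSL3 then remained among those of JUNB (0.857), RHAMM did not, and RHAMM was among those of EGR1 (0.827). Names such as RHAMM and VHNF1 are those of the array's annotation.

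Of the 43 other immediate early genes that were listed, 6 had a named probe and 5 were tested, of which 0 rose and 2 fell. Of 621 named genes, each by its brightest probe, 13.8% were higher and 9.34% lower (23.2% in all). The median change was -0.52 in the list of other immediate early genes, 0.15 in the bZIP list and 0.03 in the ZFP36 family and decay list. It was 0.24 among AU-rich transcripts, -0.08 among AP-1 targets and 0.14 in the glucocorticoid list, against 0.09 over the named genes. These lists are small and the medians are descriptions. NFKBIA, the inhibitor that holds NF-kappa-B in the cytoplasm, was at 0.63 to 1.79 in newborns, with a median of 1.12, and at 1.87 to 2.71 in fetuses, with a median of 2.17. All 7 newborns lay below all fetuses, and the change was -1.08 (SE 0.197, adjusted p = 0.00246). BHLHE40, a repressor that also acts in the circadian clock, fell by 0.58 (SE 0.178, adjusted p = 0.0320), with 3 of 7 newborns below all fetuses. It did not pass in 13 of 27 alternatives. CCN1 (CYR61), a matrix protein, had changes of -0.52 and -0.45 in its 2 probes (adjusted p = 0.0743 and 0.0660). MCL1, an apoptosis inhibitor, had a change of 0.04, and RHOB, a small GTPase, of -0.08 (adjusted p = 0.848 and 0.704).

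Of the listed bZIP partners of AP-1, 5 were tested, of which 0 rose and 1 fell (20%, against 23.2% of the named genes). CEBPB, which is itself induced by cytokines and hormones, had a change of -0.53 (SE 0.136, adjusted p = 0.0132), with 5 of 7 newborns below all fetuses. With normexp correction it was -0.10 on the median background of the array (adjusted p = 0.345) and -0.19 on the background of each spot (adjusted p = 1.00), so the call was lost and the value was smaller. ATF4, the factor of the integrated stress response, had a change of 0.50 (SE 0.330, adjusted p = 0.285), with 1 newborn at 3.61 and a median of 1.27 in newborns, against 1.12 in fetuses. ATF6 had a change of 0.15 (adjusted p = 0.389). DDIT3 (CHOP), named after its values were seen because its probes disagreed, had a change of 0.33 (adjusted p = 0.444) in the brighter probe and 0.62 (adjusted p = 0.00488) in the other. The only tested gene among the MAP kinase and SRF inputs was ARAF, with a change of 0.20 (adjusted p = 0.229).

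Of the ZFP36 family and mRNA decay genes, 3 were tested, of which 0 rose and 1 fell (33.3%, against 23.2% of the named genes); all 3 are partners or phosphatase subunits rather than decay enzymes. YWHAH, a 14-3-3 protein, had a change of -0.37 (SE 0.104, adjusted p = 0.0213), with 6 of 7 newborns below all fetuses. YWHAE, another 14-3-3 protein, had a change of 0.16 (adjusted p = 0.247) in its brighter probe and 0.34 (adjusted p = 0.0189) in the other. PPP2CA, a catalytic subunit of phosphatase 2A, had a change of 0.03 (adjusted p = 0.863).

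Of the listed transcripts with AU-rich elements that ZFP36 is known to bind, 10 were tested, of which 3 rose (30%, against 13.8% of the named genes) and 1 fell (10%, against 9.34%). The 3 that rose, TNF, CXCL10 and IL1B, were each well above background on more newborn than fetal arrays. The filter could thus favour dim genes that are high in newborns, and the share of 30% is only a description. TNF, a cytokine whose mRNA is the best known target of ZFP36, was at -4.26 to -2.51 in newborns (median -3.21) and at -6.07 to -4.15 in fetuses (median -5.01). It was well above background on 6 of 7 newborn and 2 of 6 fetal arrays, so it entered the test through the newborn arrays and the size of its change is uncertain. The change was 1.75 in measured signal (SE 0.364, adjusted p = 0.00459), and with normexp correction 0.49 on the median background of the array (adjusted p = 0.00337) and 0.36 on the background of each spot (adjusted p = 0.923). CXCL10, an interferon-induced chemokine, had a change of 2.14 (SE 0.609, adjusted p = 0.0219), with 6 of 7 newborns above all fetuses. It was well above background on 7 newborn and 4 fetal arrays. With animal number as a random block its adjusted p was 0.0515, and with normexp correction the change was 0.96 on the median background (adjusted p = 0.0346) and 0.67 on the background of each spot (adjusted p = 0.670). IL1B had a change of 0.49 (SE 0.141, adjusted p = 0.0226). It was well above background on only 4 newborn and 2 fetal arrays, so the size of its change is uncertain. IL1B did not pass in 7 of 26 alternatives, among them those without fetus 2 (adjusted p = 0.0525) or fetus 5 (adjusted p = 0.0553). With normexp correction its change was 0.18 on the median background (adjusted p = 0.147) and 0.014 on the background of each spot (adjusted p = 0.9998). VEGFA fell by 0.67 (SE 0.166, adjusted p = 0.0110), with all 7 newborns below all fetuses. CXCL8 had a change of 0.63 and CXCL1 of 0.25 (adjusted p = 0.121 and 0.166). Without newborn 6 the change of CXCL8 was 0.81 (adjusted p = 0.0223).

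Of the AP-1 target genes listed, 9 were tested, of which 1 rose (11.1%, against 13.8% of the named genes) and 3 fell (33.3%, against 9.34%). TIMP1, an inhibitor of matrix proteases, had a change of 0.82 (SE 0.210, adjusted p = 0.0136). MMP2, a protease of the matrix, had a change of -0.75 (SE 0.150, adjusted p = 0.00392), which was -0.42 with median-background normexp (adjusted p = 0.00318) and -0.40 with normexp on each spot (adjusted p = 0.588), and EDN1, the precursor of endothelin-1, of -0.81 (SE 0.260, adjusted p = 0.0373). COL3A1, a collagen chain, had a change of -0.37 (SE 0.125, adjusted p = 0.0470) in its brightest probe. Its other tested probes had changes of -0.19 and -0.28 (adjusted p = 0.374 and 0.143) and did not pass. EDN1 and COL3A1 did not pass in 18 of 26 and 18 of 28 alternatives. The change of EDN1 was -0.17 with median-background normexp (adjusted p = 0.305) and -0.24 with normexp on each spot (adjusted p = 0.9998). It was -1.26 within slide 1 (adjusted p = 0.0542) and -0.19 within slide 2 (adjusted p = 0.797). TGFB1 had a change of -0.33 and ICAM1 of 0.85 (adjusted p = 0.0788 and 0.0887). Without newborn 6 the change of TGFB1 was -0.37 (adjusted p = 0.0483). Of the 5 tested genes listed as induced by glucocorticoids, 0 rose and 1, NFKBIA, fell (20%, against 23.2% of the named genes). That list also holds NR3C1, the receptor itself. NR3C1 had a change of -0.16 and HSD11B2, which inactivates cortisol, of 0.41 (adjusted p = 0.489 and 0.304).

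In bulk tissue, fewer cells of a type and less RNA per cell cannot be told apart. The marker counts below stand against 13.8% higher and 9.34% lower of the 621 named genes. Of the macrophage and monocyte markers, 3 of 5 tested (CD14, FCER1G and FCGR1A) were higher in newborns. The summed linear level of the tested markers, relative to the 75th percentile, was 1.26 to 2.69 in newborns and 0.877 to 1.41 in fetuses. FCGR1A was well above background on 7 newborn and 2 fetal arrays. It thus entered the test through the newborn arrays, and the size of its change is uncertain. Both tested T cell markers (CD3D and CD3E) were lower, with sums of 0.042 to 0.157 in newborns and 0.207 to 0.591 in fetuses. Of the endothelial markers 3 of 5 (PECAM1, KDR and FLT1) were lower, with sums of 4.47 to 6.99 in newborns and 6.09 to 7.81 in fetuses. Of the erythroid markers 2 of 3 (HBB and AHSP) were lower. CD3D and AHSP were each well above background on 2 newborn and 5 fetal arrays, so the sizes of their changes are uncertain. Of the fibroblast markers 1 of 4 (COL3A1, in its brightest probe only) was lower, and CNN1, the 1 tested smooth muscle marker, was higher. Of the skeletal muscle markers MYOD1 was higher, and TNNC2 had a change of 1.11 that did not pass. TNNC2 varied widely within both groups, from -0.46 to 5.30 in newborns and from -0.72 to 3.84 in fetuses. The skeletal muscle sums were 0.883 to 39.4 in newborns and 0.681 to 14.4 in fetuses. With group means subtracted, TNNC2 was among the 5 named genes nearest to MYC (r = 0.776). No neutrophil marker was tested and no atrial marker had a named probe. Of 23 ventricular cardiomyocyte markers only MB, myoglobin, had a named probe, at 8.62 ± 0.39 in newborns and 8.97 ± 0.18 in fetuses (SD, n = 7 and 6). Only 1569 of the 15008 probes were matched to a gene name, so markers without a named probe may still be on the array. Among named probes the labelled tissue could thus be checked by MB alone, which skeletal muscle also expresses. The part of these cell types in the changes of the listed genes was not tested.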

How the data were processed

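Agilent Feature Extraction 10.1.1.1 produced the deposited intensity values, per the file headers, as background-subtracted and detrended processed signals without scaling between arrays. Per the labels the dye was Cy3 in the protocol and Cy5 in another field, and only a green channel is present. The authors' deposited value table covers 7041 probes (7 of the 13 member probes). What the authors did to make its deposited values is unstated, and they look like log2 signals, with column medians of 8.69 to 8.70. They run in the direction of the scanner signal of the same array (r 0.986 to 0.992), while their scale and centring are unstated, so the table served as an alternative.

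From each log2 processed signal the array's 75th percentile over non-control spots was subtracted. Outlier-marked spots were left out and spots of a probe averaged. Two-sided limma 3.58.1 (lmFit and eBayes, R 4.3.3) with Benjamini-Hochberg adjustment covered all probes that passed the filter, with age alone, age and sex, or their product. Genes were named through a RefSeq gene table or, for 199 of 1569 named probes, kept as in the files, and represented by the brightest probe. Every member probe is described, every tested gene among the other immediate early genes, and of each further list the genes that passed plus the 2 with the lowest p that did not; of the nearest genes, part is described. Members, lists and tests were chosen with earlier results of these data known. Alternatives covered background (normexp, offset 50), scaling, filters, slide, sex, replicate and animal number, and each array left out. The steps were tested on simulated data. Probe sequences come from the scanner files, which name no genome build, so no coordinates are printed. Newborn and fetal arrays with the same replicate number did not deviate together (correlations -0.071 to 0.054), while arrays of the same animal number had a consensus correlation of 0.178. The R package data.table (version 1.17.8) read the files. Figures used matplotlib 3.10.9 with numpy 2.4.6 and pandas 2.3.3 under Python 3.11.15.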

Additional observations from a re-analysis of the deposited data

Results flagged for a closer look

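MYC was picked out because newborn minus fetal differences ran in opposite directions in males and females, with every newborn male below the mean of the fetal males and every newborn female above the mean of the fetal females. The difference between males and females in that change was -0.98 for MYC a and -0.95 for MYC b. Limma's product term for age and sex had an unadjusted p of 0.0253 for MYC a and 0.00978 for MYC b, and an adjusted p of 0.975 for both, so it did not pass. Leaving out single arrays gave values from -1.44 to -0.51 for MYC a and from -1.34 to -0.56 for MYC b. The MYC probes overlap and count as a single observation.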

How the results depend on the processing

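Changes are log2, newborn minus fetal unless stated, tested with limma. Normexp with the median background of the array took ZFP36 a (0.33, adjusted p = 0.0236) and FOS a (0.39, adjusted p = 0.0480) past the threshold. ZFP36 a also passed in the authors' deposited values (0.28, adjusted p = 0.0468), among probes well above background on all arrays (0.33, adjusted p = 0.0434) and with a trended, robust eBayes (0.33, adjusted p = 0.0395), and JUNB a with sex as a covariate (0.53, adjusted p = 0.0294). Over all alternatives the p ranged from 0.0209 to 0.789 for ZFP36 a, from 0.0197 to 0.578 for JUNB a and from 0.0122 to 1.00 for FOS a. MYC a, MYC b and JUNB b kept direction and side of the threshold in 28 of 28.

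These values turned sign. With normexp on each spot's background they were JUND -0.0038, ARAF -0.013, ATF6 -0.015 and PPP2CA -0.016. Within slide 1 they were EGR1 a -0.21 and C-JUN a -0.064, and within slide 2 JUND -0.16, ARAF -0.030 and RHOB 0.0099. C-JUN a was -0.00029 with median-background normexp, -0.036 with quantile normalization and -0.073 in the authors' values. Male minus female, JUND was -0.22 and C-JUN b -0.057 with slide as a block, FOS a 0.011, MYC b 0.00042 and C-JUN a -0.038 with median-background normexp, and MYC a 0.0050 with quantile normalization. The number of probes passing for age, 2366, was 48 with normexp on each spot's background, 356 within slide 1 and 23 within slide 2, the last 2 fits having fewer arrays; the cause of the first was not tested.

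With single arrays left out, age changes ranged from 0.35 to 0.57 for JUNB a, 0.30 to 0.39 for ZFP36 a, 0.54 to 0.93 for FOS a, -0.031 to 0.26 for JUND, -0.14 to 0.0032 for RHOB, -0.019 to 0.11 for PPP2CA and -0.039 to 0.077 for MCL1, and the number passing from 1726 to 3116. Male minus female differences ranged from -0.16 to 0.28 for JUND, -0.41 to 0.18 for FOS a, -0.023 to 0.11 for ZFP36 a, -0.25 to 0.097 for MYC b, -0.28 to 0.12 for MYC a, -0.0041 to 0.15 for EGR1 a, -0.0095 to 0.37 for C-JUN b and -0.037 to 0.13 for C-JUN a. The product term ranged from -0.23 to 0.097 for EGR1 a, -0.76 to 0.52 for FOS a and -0.54 to 0.34 for JUND, with 0 to 2 probes passing.

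With the replicate number as a block 1326 probes passed for age and 0 of the 8; 1 array of 6 tested correlated best with its own number, so the numbers were not taken to pair the arrays. Changes under that block were 0.31 for ZFP36 a, 0.47 for JUNB a and 0.70 for FOS a. Low signal over background limits FOS b, c and d, EGR1 b and ZFP36 b.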
